A study of Apis mellifera with 4 samples.

Results

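The genes described here are the neurotransmitter receptor and cholinesterase genes that carry a symbol in the honeybee gene table: nicotinic and muscarinic acetylcholine receptors, acetylcholinesterases, GABA, glutamate and histamine receptors, and receptors for dopamine, octopamine, tyramine and serotonin. They were picked by symbol alone, and 34 of the 11156 genes in the table matched. No row matched the muscarinic pattern or the symbol Tyr1. The samples were whole *Apis mellifera* larvae at 60 hours, with 2 samples from queens and 2 from workers. Queen larvae had been grafted after hatching into queen cells in a hive without a queen, whereas worker larvae stayed in the cells they hatched in, in a different hive, so that caste, diet, hive and grafting cannot be told apart. Each sample was a pool of larvae, measured by RNA-seq, and levels are given as exon reads and as RPKM, the exon reads scaled to exon length and to the reads mapped to genes in that sample. The comparison asks whether larvae reared as queens and as workers already differed in these genes of the nervous system.

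Nerve cells release small transmitters that bind receptors on the next cell. Ionotropic receptors are ion channels opened by the transmitter itself, and the nicotinic, GABA, glutamate and histamine channels of insects belong to this kind. Metabotropic receptors, among them the GABA-B receptors and the receptors for biogenic amines, act through G proteins. Acetylcholine is the main fast excitatory transmitter of the insect brain and GABA the main inhibitory one, and acetylcholinesterase ends a cholinergic signal by splitting acetylcholine. Octopamine and dopamine are known in the adult bee for their parts in reward and punishment learning. In RNA from whole larvae, fewer cells of a type and less RNA per cell cannot be told apart.

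Exon reads came to between 4949093 and 5476218 per sample. Queen samples had 778 and 672 of these on the 34 genes together, and worker samples 849 and 602, so that most of them rest on few reads. Castes were compared with edgeR's quasi-likelihood test on exon reads, fitted over 7833 genes, after scaling by edgeR's TMM factors, and a gene was called where its p, after Benjamini-Hochberg adjustment over all of them, was under 0.05. Fold changes are queens over workers, so that a negative value is higher in workers. RPKM does not contain the TMM scaling, and a gene with equal RPKM in both castes would have a log2 fold change of about -0.51. With 2 samples against 2 the exact permutation test of a single gene cannot go below p = 0.33, so that calls were made with a spread that edgeR estimates over many genes together. Intervals on counts cover counting error only. Counting by strand is not known here, and 15 of the 34 genes have another annotated gene within or across their span.

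An RPKM of 1 or above in at least 2 samples was reached by 10 of the 34 genes, or 29.4%, against 70.8% of all genes in the table. These were nAChRa9, nAChRb2, nAChRa3, AChE-1, AChE-2, Octbeta2R, Grd, GluCl, GABA-B-R2 and Nmdar1, and the same 10 passed the filter on low counts. They held 91.9% of the exon reads of the 34 genes. The other 24 had between 0 and 33 exon reads summed over the 4 samples and were not tested. Among all genes that met this limit, nAChRa9 lay at the 55.4th percentile of mean RPKM, and the remaining 9 lay between the 1.19th (Nmdar1) and the 16.6th (Grd).

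**Figure D1:**
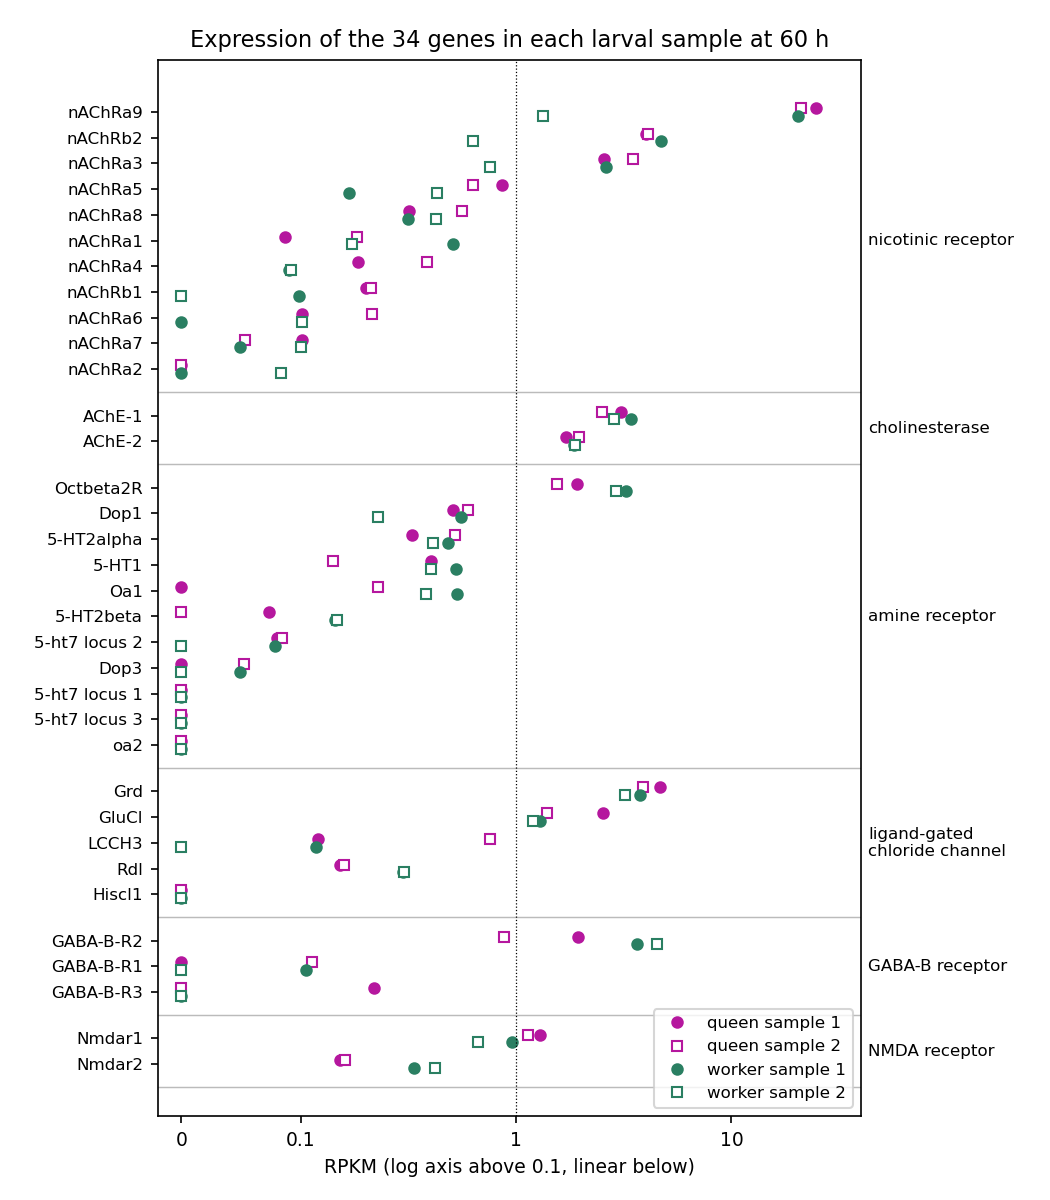
RPKM of each gene (rows, grouped by role) in the 4 larval samples, on an axis that is logarithmic above 0.1 and linear below, with a dotted line at an RPKM of 1. Queens and workers are shown in different colours, with filled circles for sample 1 and open squares for sample 2, and 24 of the 34 genes do not pass the dotted line in 2 samples.

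Of the 10 genes tested, 2 were called higher in workers with edgeR's quasi-likelihood test, GABA-B-R2 and Octbeta2R, against 12.0% of all 7833 genes tested. None was called higher in queens, where 6.32% of all genes were called. At an unadjusted p below 0.05 the counts were 4 of 10, all towards workers and 0 towards queens, against 34.1% of all genes in either direction. DESeq2 also called 2 genes higher in workers and 0 higher in queens. On the log2 scale the 10 genes had a median fold change of -0.07, and all genes tested one of 0.01. When the library totals alone scaled the samples, GABA-B-R2 and Octbeta2R were again the 2 genes called higher in workers, where 6.20% of all genes were called in that direction. No member was then called higher in queens, although 47.3% of all genes were, and the median of all genes moved to 0.55 and that of the 10 genes to 0.46.

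**Figure D2:**
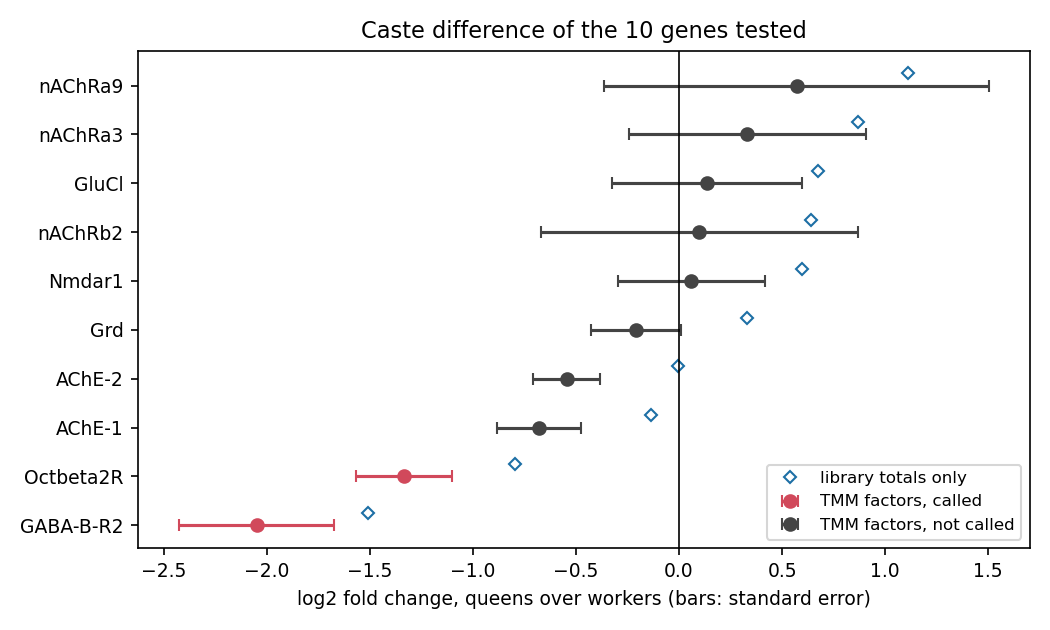
Log2 fold change, queens over workers, of the 10 genes tested (filled circles with the standard error, TMM factors) and the value with library totals only (open diamonds). GABA-B-R2 and Octbeta2R lie furthest to the left at -2.05 and -1.33, and Grd is the gene whose sign differs between the scalings.

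Of the 10 genes tested, the metabotropic GABA receptor gene GABA-B-R2 showed the largest difference. GABA-B receptors work in mammals as pairs of unlike subunits, one that binds GABA and one that couples to the G protein. GABA-B-R2 had RPKM values of 1.93 and 0.879 in queens and of 3.63 and 4.53 in workers, from 60 and 26 reads in queens and 115 and 141 in workers. The means were 1.40 ± 0.744 in queens and 4.08 ± 0.638 in workers (SD, n = 2 each). Both worker samples were above both queen samples, and the queen samples differed from each other by more than the worker samples did. Its level was 4.14-fold higher in workers, or -2.05 on the log2 scale with a standard error of 0.38 (edgeR, adjusted p = 0.022). The value was -2.22 without worker sample 1 and -1.86 without worker sample 2. GABA-B-R2 was called in neither fit, and fewer of all genes were called in both fits as well. Of its reads 90.9% matched a single place in the genome.

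The other GABA-B subunits were close to absent from these libraries. For GABA-B-R1, queens had 0 and 3 reads and workers 3 and 0. GABA-B-R3 had 6 reads in queen sample 1 and 0 in each of the other samples, where a count of 0 allows up to 3 reads. A transcript of GABA-B-R2 was thus counted in each sample, whereas no sample had more than 3 reads of GABA-B-R1, the subunit with which it pairs in mammals.

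Among the biogenic amine receptors Octbeta2R was the only one of 11 that passed the filter. In flies this receptor responds to octopamine and raises cAMP. Its RPKM was 1.92 and 1.55 in queens and 3.25 and 2.91 in workers, from 43 and 33 reads in queens and from 74 and 65 in workers. The means were 1.74 ± 0.264 in queens and 3.08 ± 0.242 in workers (SD, n = 2 each). The castes did not overlap, and samples of a caste lay close to each other. The level was 2.52-fold higher in workers, or -1.33 on the log2 scale with a standard error of 0.23 (edgeR, adjusted p = 0.019). Of its reads 91.2% matched a single place. Leaving out worker sample 1 gave -1.27 and leaving out worker sample 2 gave -1.40. Octbeta2R was called in neither fit, and fewer of all genes were called in both fits as well. It was also not called with limma on log2(RPKM + 1), a scale without the TMM factors, where the difference was -0.58 (adjusted p = 0.067). Octbeta2R is the only one of the 34 genes with more than 1 annotated transcript, with 5.

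The remaining amine receptors were rare. Oa1, an octopamine receptor that in bees signals through calcium, had 0 and 4 reads in queens and 10 and 7 in workers. Its castes did not overlap, and it had too few reads for the test. Dop1, a dopamine receptor that raises cAMP, had 9 and 10 reads in queens and 10 and 4 in workers, and these values overlapped. Dop3, a receptor of the type that lowers cAMP, had at most 1 read in a sample. DopR2 and TyrR, a further dopamine receptor and the tyramine receptor, lie outside the symbol pattern and were added after their values were seen. DopR2 had 5 and 3 reads in queens and 0 and 1 in workers, and TyrR had 8 and 3 in queens and 10 and 6 in workers.

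Serotonin receptors, 5-HT2beta among them, had at most 6 exon reads in any sample. 5-HT2alpha, whose type acts through calcium, had 4 and 6 reads in queens and 6 and 5 in workers. 5-HT1, whose type lowers cAMP, had 3 and 1 in queens and 4 and 3 in workers. The castes overlapped in RPKM for both genes but not in counts scaled by the TMM factors, where workers were higher, and neither gene had enough reads for the test. The symbol 5-ht7 was given to 3 loci on different scaffolds, one annotated with 10 exons over 92821 bases, one with 1 exon over 3021 bases and one with 9 exons over 31668 bases. The first and the third had no exon read in any sample, and the second had 1 read in 3 samples and 0 in worker sample 2. The reference table holds 1 gene of this name, and whether the 3 loci are parts of it was not tested. oa2, an octopamine receptor gene by its symbol, and Hiscl1, a histamine-gated chloride channel, also had no exon read. A count of 0 allows up to 3 reads, which for Hiscl1 in queen sample 1 is an RPKM of up to 0.376.

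The nicotinic receptor is represented by 9 alpha and 2 beta subunits, which assemble in different combinations into a cation channel. Only nAChRa9, nAChRb2 and nAChRa3 passed the filter. nAChRa9 had the highest RPKM of the 34 genes, although AChE-2 had more exon reads, 587 against 551. nAChRa9 took 19.0% of the exon reads of the 34 genes. Queens had 204 and 165 of its reads, worker sample 1 had 171 and worker sample 2 had 11, at RPKM values of 24.7, 21.0, 20.3 and 1.33. Worker sample 1 thus lay beside the queens, and worker sample 2 stood apart from all other samples. The exact 95% Poisson intervals were 146 to 199 reads for worker sample 1 and 5.49 to 19.7 for worker sample 2.

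nAChRb2 followed the same course at a lower level. Its reads were 32 and 31 in queens and 38 and 5 in workers, with RPKM values of 4.02, 4.09, 4.69 and 0.628. nAChRa3 had 27 and 35 reads in queens and 28 and 8 in workers, and its interval in worker sample 2, 3.45 to 15.8 reads, lay below that in worker sample 1, 18.6 to 40.5 reads. For each of these subunits 3 samples were alike and worker sample 2 was low.

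The 3 subunits were not called between the castes. The log2 fold change of nAChRa9 was 0.57 (standard error 0.93), that of nAChRa3 0.33 (standard error 0.58) and that of nAChRb2 0.10 (standard error 0.77), with adjusted p-values from edgeR of 0.71, 0.73 and 0.94. These standard errors are wide, and no difference between the castes was detectable with these samples. The value of nAChRa9 depended on which worker sample was kept. Without worker sample 2 it was -0.33 (adjusted p = 0.28 from edgeR), and without worker sample 1 it was 3.56 and was called higher in queens (adjusted p = 0.025 from edgeR), when the lone worker sample is taken to vary like the queens. nAChRb2 went from -0.70 to 2.14 in the same fits and nAChRa3 from -0.28 to 1.45, and neither was called.

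**Figure D3:**
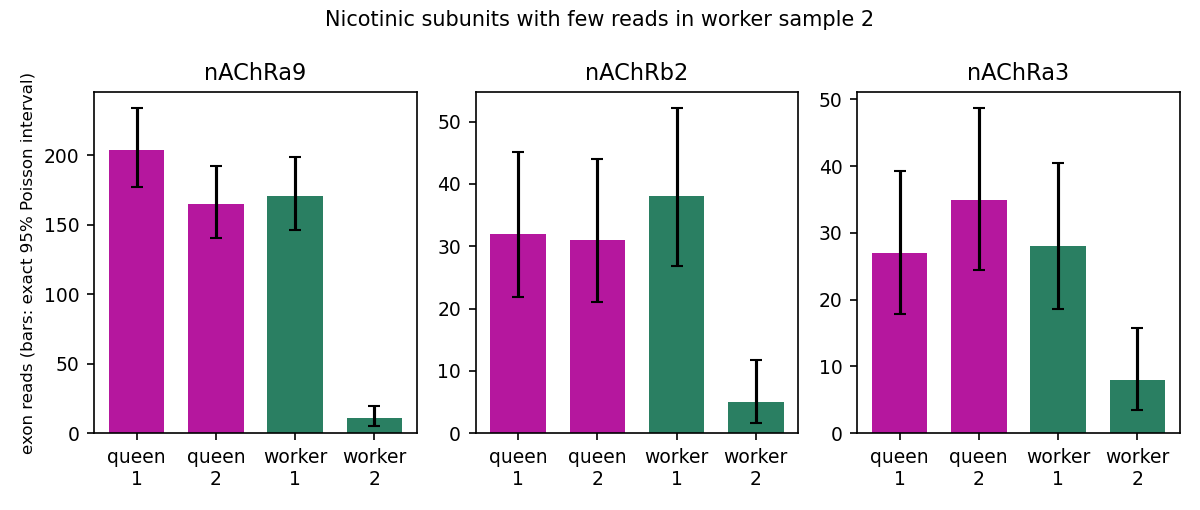
Exon reads of nAChRa9, nAChRb2 and nAChRa3 in each larval sample (bars), with exact 95% Poisson intervals that cover counting error only. Worker sample 2 is the lowest in each panel, at 11, 5 and 8 reads.

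nAChRa9 and nAChRb2 are neighbours. On scaffold NW_003378095 of Amel_4.5, nAChRa9 spans positions 1299275 to 1302873 and nAChRb2 positions 1302534 to 1305678, so that their annotated spans overlap by 340 bases. Of their reads 99.1% and 97.2% matched a single place, and 80 and 38 reads crossed a junction between exons. The gene on the far side of nAChRa9, LOC408989, overlaps it by 693 bases and had 308 reads in worker sample 1 and 298 in worker sample 2. LOC408990, beyond nAChRb2, overlaps it by 821 bases and had 136 and 126 reads in the worker samples. Reads of these flanking genes were therefore not reduced in worker sample 2. nAChRb1 and nAChRa7 lie 21511 bases apart with no other annotated gene between them. nAChRa2 and nAChRa1 lie 50505 bases apart on another scaffold, and LOC726167, whose span contains nAChRa2, reaches into the interval.

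The other 8 nicotinic subunits had at most 10 exon reads in a sample. nAChRa5 had 10 and 7 reads in queens and 2 and 5 in workers, which did not overlap, but only 12.5% of its reads matched a single place, so that its level is uncertain. nAChRa8 had 3 and 5 reads in queens and 3 and 4 in workers. nAChRa1 had 1 and 2 in queens and 6 and 2 in workers, and the castes overlapped in RPKM for both genes, but for nAChRa1 not in counts scaled by the TMM factors, where workers were higher. nAChRa4, nAChRa6, nAChRa7 and nAChRb1 had 8, 4, 6 and 5 reads in all 4 samples together, and nAChRa2 had 1.

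In RPKM, though not in counts scaled by the TMM factors, the cholinesterases had some of the most even levels of the 10 genes tested. AChE-1 had RPKM values of 3.07 and 2.51 in queens and 3.43 and 2.84 in workers, from 95 and 74 and from 108 and 88 reads. AChE-2 had 1.70 and 1.95 in queens and 1.85 and 1.88 in workers, from 136 and 149 and from 151 and 151 reads. In RPKM the castes overlapped for both genes. With the TMM factors the scaled counts no longer overlapped and were higher in workers, at log2 fold changes of -0.68 for AChE-1 (standard error 0.20) and -0.54 for AChE-2 (standard error 0.16). Neither was called (adjusted p = 0.077 and 0.074 from edgeR), but both were among the 4 genes with an unadjusted p below 0.05 from edgeR. The span of AChE-1 is overlapped for 1467 bases by LOC408320, which had 360 and 267 reads in queens and 777 and 928 in workers, and the part of its reads in those of AChE-1 was not tested. With the library totals alone the values were -0.14 and -0.01, so that both differences depended on the scaling.

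Among the genes grouped here as ligand-gated chloride channels, Grd and GluCl passed the filter. Grd, a channel subunit of the GABA receptor family, had RPKM values of 4.67 and 3.89 in queens and 3.75 and 3.19 in workers. The castes did not overlap in RPKM but did in counts scaled by the TMM factors. The log2 fold change of -0.21 (standard error 0.22) became 0.33 with the library totals alone, and it was not called under either scaling. GluCl, a glutamate-gated chloride channel and a target of avermectins, had 21 and 11 reads in queens and 11 and 10 in workers. The difference was 0.14 on the log2 scale (standard error 0.46) and was not called, and queen sample 1 alone stood above the rest.

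Rdl, the principal GABA-gated chloride channel of insects and a target of cyclodiene and phenylpyrazole insecticides, had 3 reads in each queen sample and 6 in each worker sample. Its RPKM lay between 0.151 and 0.302. LCCH3, a subunit of the same family, had 1 and 6 reads in queens and 1 and 0 in workers. Rdl and LCCH3 thus had fewer reads in these larvae than Grd, whose RPKM was above 3 in each sample.

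NMDA receptors are glutamate-gated cation channels that need a common subunit of type 1 beside a subunit of type 2. Nmdar1 had 25 and 21 reads in queens and 19 and 13 in workers, and its fold change of 0.06 on the log2 scale (standard error 0.36) was not called. Nmdar2 had 4 and 4 reads in queens and 9 and 11 in workers. The castes did not overlap for Nmdar2, and in a fit that kept all genes with at least 1 read it stood at -1.73 on the log2 scale (unadjusted p = 0.021 and adjusted p = 0.10 from edgeR), which was not called.

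Most of the genes were long, and 6 of the 34 had spans below the median of all genes. The median span was 27490 bases with 9 exons, against 4673 bases and 6 exons over all genes with an annotated exon, although the median exon length was similar, 1951 and 1818 bases. Spans over 100 kb were found in 5 of the 34 genes (nAChRa4, nAChRa6, nAChRa7, Dop3 and AChE-2), and in 2.29% of the same background. The longest were those of nAChRa4 with 257608 bases and nAChRa6 with 244952 bases. nAChRa9 and nAChRb2 were among the short genes, with spans of 3599 and 3145 bases. Of the 5 longest, AChE-2, with 135633 bases, was tested, and Dop3, with 139997 bases, had 2 reads.

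A larger part of their reads fell on introns than in other genes. The median share of gene reads on introns was 48.2% over the 32 genes with any read, and 7.24% over all genes. All genes had a shorter median span, and genes of similar span were not compared. Intron reads exceeded exon reads in 16 of the genes. nAChRa6 had 54 intron reads and 4 exon reads, and nAChRa4 had 95 and 8. Per kilobase the order was the reverse, with 31.4 exon reads per kilobase of exon and 4.42 intron reads per kilobase of intron, summed over the 34 genes. Low intron shares were found in nAChRa9, with 9 intron reads against 551 exon reads, and in Nmdar1 and nAChRb2, with 7 against 78 and 11 against 106.

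5-HT2beta needs a separate account. It had 5 exon reads in all, but 1327 and 1402 intron reads in queens and 942 and 958 in workers, which made up 61.2% of the intron reads of the 34 genes. Only 87 of these 4629 reads matched a single place. Its span contains LOC100577331, a gene with 8455 and 7970 exon reads in queens and 3532 and 3583 in workers, of which 1.80% matched a single place. The part of this gene in the intron reads was not tested. With single-match reads, 39.9% of the reads of the 34 genes lay on introns, against 72.3% with all reads.

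**Figure D4:**
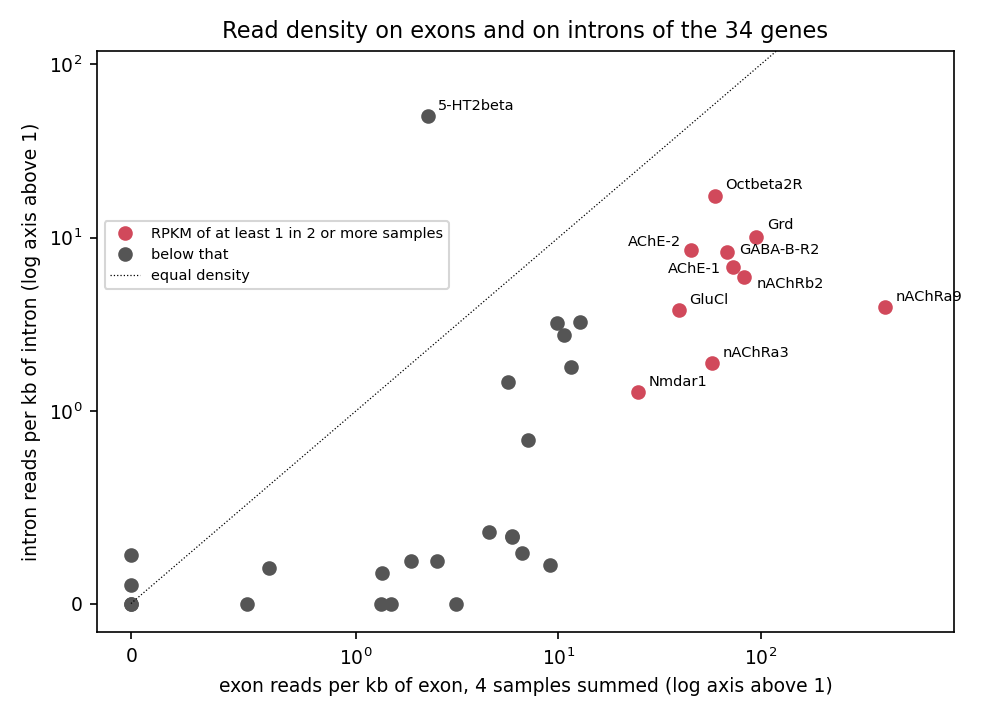
Intron reads per kilobase of intron against exon reads per kilobase of exon for the 34 genes, summed over the 4 samples, on axes that are logarithmic above 1 and linear below, with a dotted line at equal density. 5-HT2beta lies far above the line at 50.3 intron reads per kilobase, and the 10 genes tested lie below it on the right.

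Genes that make and carry transmitters were measured beside the receptors. Of 25 symbols searched, 11 rows matched, 5 were tested and 2 were called, both higher in workers, against 12.0% of all 7833 genes tested. Gad1, glutamate decarboxylase, which makes GABA, had 1122 and 973 reads in queens and 2681 and 2971 in workers. The difference was -1.90 on the log2 scale with a standard error of 0.12 (edgeR, adjusted p = 8.9e-04), and it was called higher in workers under both scalings. Eaat-3, a glutamate transporter, stood at -0.68 on the log2 scale and was called with the TMM factors but not with the library totals alone, where it was -0.14. Ddc, the decarboxylase that makes dopamine and serotonin, had 401 and 532 reads in queens and 358 and 196 in workers and was not called (log2 fold change 0.30). Tdc1, Tdc2 and Tbh, which serve the synthesis of tyramine and octopamine in flies, had at most 4 reads in a sample.

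Genes of neurons and synapses had reads in both castes, although elav and nSyb, the usual neuronal markers, matched no row. Of 22 symbols 13 rows matched, 9 were tested and 4 were called, all higher in workers, against 12.0% of all 7833 genes tested. Those called were Syx1A and Syn, which act in vesicle release, and the bruchpilot gene LOC409012 of the active zone. The neuroligin NLG-1, an adhesion protein of the synapse, was called as well. It had 4 and 5 reads in queens and 14 and 13 in workers, at an RPKM of at most 0.504. Adjusted p-values from edgeR were 0.040 for NLG-1, 0.045 for Syx1A, 0.047 for LOC409012 and 0.024 for Syn. Syn had 20 and 24 reads in queens and 49 and 43 in workers, or -1.52 on the log2 scale (standard error 0.28). With the library totals alone Syn and NLG-1 were called higher in workers, cpx, a regulator of vesicle fusion, was called higher in queens, and Syx1A and LOC409012 were not called. The RPKM summed over this list was 22.3 and 20.2 in queens and 22.8 and 21.4 in workers. Para, the voltage-gated sodium channel of nerve fibres, and Syt1, the calcium sensor of vesicle release, were not called (log2 fold changes of -0.19 and -0.86).

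Markers of other cell types moved by different amounts. Of 7 glial symbols 4 rows matched (repo, nrv2, drpr and Gli). All 4 were tested and had log2 fold changes between -0.20 and 0.12, with no call. With the library totals alone 3 were called higher in queens. Under that scaling 47.3% of all genes were called higher in queens, and the median of all genes was 0.55. The summed RPKM of the 4 glial genes was 67.6 and 70.4 in queens and 52.1 and 44.7 in workers. Of 13 muscle symbols only 2 rows matched, Mlc2 and Mf. Both were called higher in workers, with summed RPKM values of 267.9 and 246.8 in queens and 377 and 391 in workers. Of 9 fat body symbols 7 rows matched, and all 7 were called higher in workers. Among them were the storage proteins HEX70b, Hex110, Hex70c and Hex70a, the lipid carrier gene Rfabg and the transferrin gene Tsf1. The summed RPKM of the 7 genes was 9238 and 10145 in queens and 81830 and 74208 in workers. With the TMM factors 12.0% of all genes tested were called higher in workers. The part of cell composition in the values of GABA-B-R2, Octbeta2R and Gad1 was not tested.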

How the data were processed

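RNA was from 2 queen and 2 worker samples of larvae at 60 hours. Mapping to Amel_4.5 was done by the authors in CLC Genomics Workbench. The deposited counts are whole reads on exons, on exons with introns and across junctions of a gene, including and excluding reads that match several places. The authors also computed the deposited RPKM values from exon reads, exon length and reads mapped to genes. Whether counting used the strand is not given in the sources used here. The authors' own fold changes and test results, and the list of transcripts chosen with them, were not used.

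Castes were tested on exon reads in edgeR 4.0.16, R 4.3.3 (TMM factors, filterByExpr, quasi-likelihood test, Benjamini-Hochberg adjustment over 7833 genes, adjusted p below 0.05), without a replicate block. A standard error is the log2 fold change over the root of edgeR's F. The fit was tested on simulated counts. Intron reads are gene reads less exon reads. The TMM factors were 1.21 and 1.20 for queens and 0.828 and 0.830 for workers. Alternatives were DESeq2 1.42.0, limma 3.58.1 (RPKM on the log2 scale, pseudocounts of 1 and 0.1), other scalings and filters, single-match reads and the replicate block, and left out each sample. Samples with the same number come from different larvae.

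The symbol pattern, the gene lists (transmitter synthesis and transport, neurons and synapses, glia, muscle, fat body) and the tests were chosen with earlier results of these data known. All 34 genes are named, with called genes and the most abundant genes of the lists. List symbols were matched without regard to case or hyphens, also through the gene IDs of the RefSeq table of Amel_HAv3.1. By symbol, 25 of the 34 genes matched that table. It was used for names only. Dat, Trh and Hdc, for which symbols are shared with other genes or occur at more than 1 place, are not described one by one. Tdc1, Tdc2, Tbh, repo, cpx, DopR2, TyrR and the genes beside or inside members were named after their values were seen, as were Osi9, Osi7 and CUBN.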

Additional observations from a re-analysis of the deposited data

How the results depend on the processing

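The edgeR call of 2 genes higher in workers and 0 higher in queens was the same with DESeq2 size factors, upper-quartile scaling, library totals (also leaving out the 10 most abundant genes), both other filters, the DESeq2 Wald test, single-match reads and the replicate block. The block gave 2 genes higher in workers and changed no call among the 34 genes. The deviations of same-numbered samples had a correlation of -0.04. With 2 samples per caste this value cannot show whether the numbers pair the samples. With limma on log2(RPKM + 1) and on log2(RPKM + 0.1), 1 gene, GABA-B-R2, was called higher in workers, and the RPKM values carry no TMM scaling. Of 7904 genes tested with limma, 490 and 479 were called higher in workers and 3480 and 3414 higher in queens. Leaving out each sample gave between 0 and 2 genes higher in workers and between 0 and 1 higher in queens. GABA-B-R2 and Octbeta2R were not called without worker sample 1 or worker sample 2, and were called without either queen sample. Calls over all genes also fell without a worker sample, by more than without a queen sample. In each of these fits the lone sample of a caste was assumed to vary like the other caste. Neither GABA-B-R2 nor Octbeta2R changed direction under any of these alternatives. By a limit of at least 10 summed exon reads, 19 genes in place of 10 counted as expressed. The 72.3% of reads on introns became 50.3% without 5-HT2beta and 39.9% with single-match reads, both chosen after seeing the data, and 12.4% when reads were taken per kilobase of intron and exon. Depth limits the 24 untested genes, which had at most 33 summed exon reads each.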

Other observations

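The drop of nicotinic subunits in worker sample 2 was set against all genes after it had been seen. Of 7374 genes with at least 30 reads in the worker samples together, 30 had a count scaled by the TMM factors that was at least 4-fold higher in worker sample 1 than in worker sample 2, and 8 were at least 4-fold lower. nAChRa9 and nAChRb2 were among the 30, with ratios of 14.9 and 7.30. nAChRa3 had a ratio of 3.36, from 28 and 8 reads. Among the genes with larger ratios, Osi9 and Osi7 belong to the Osiris family and differed between the queen samples too, with 5748 and 687 reads for Osi9. CUBN, named for the endocytic receptor cubilin, had 206 and 216 reads in queens, 380 in worker sample 1 and 13 in worker sample 2, and like nAChRa9 it was close in the queen samples and low in worker sample 2 alone.

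Gad1, which makes GABA, and GABA-B-R2, a subunit of the GABA-B receptor, were both called higher in workers, at log2 fold changes of -1.90 and -2.05. In that direction 12.0% of all 7833 genes tested were called. GABA-B-R1, its partner subunit in mammals, had at most 3 reads in a sample. The channel subunit Grd was not called, and Rdl had 3 to 6 reads in a sample. LCCH3 had 1 and 6 reads in queens and 1 and 0 in workers, and GABA-B-R3 had 6 in queen sample 1 alone. Whether GABA-B-R2 and Gad1 are expressed in the same larval cells was not tested.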
